A study of Mus musculus with 2 samples.

Results

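Osteoclast-like cells with high Acp5 and Ctsk were taken from tumour-infiltrating leukocytes of a mouse mesothelioma. They were chosen by a score, the mean over 5 genes (Acp5, Ctsk, Atp6v0d2, Ocstamp and Dcstamp) of the natural log of 1 plus the gene's unique molecular identifiers (UMIs) per 10000 UMIs of the cell. Cells were eligible with at least 300 genes, at least 5000 UMIs, at most 10% mitochondrial UMIs and at most 2 UMIs of Col3a1 and Col1a2 together. The top 10% of the 12746 eligible cells, ranked over both libraries pooled, are the 1275 osteoclast-like cells, of 20512 cell barcodes in all.

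The study sorted CD45+ cells, the pan-leukocyte gate, with dead cells removed by propidium iodide, from tumours of mice bearing AB1-HA, a mesothelioma line that carries a model antigen. One library came from mice given an anti-VEGF antibody, which blocks the vessel growth factor VEGF, and 1 library from mice given a control antibody. Neither the mouse strain and age, the dose and timing, nor the number of mice pooled per library is given in the sources used here. With 1 library per group there is no replicate, so intervals cover counting error only and no difference between the libraries carries a test.

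Osteoclasts form from myeloid precursors when M-CSF and RANK signalling switch on the transcription factor NFATc1, after which the cells fuse into multinucleated giants. A mature osteoclast seals off a patch of bone, pumps acid into it with a plasma membrane proton pump (the V-ATPase) and digests the matrix with cathepsin K and metalloproteinases. Cells with part of this gene program also occur in tumours and granulomas away from bone. Acp5 encodes tartrate-resistant acid phosphatase, the classical osteoclast stain, Ctsk cathepsin K and Atp6v0d2 a V-ATPase subunit needed for fusion, while Ocstamp and Dcstamp encode the multipass membrane proteins that drive fusion.

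Of 30 start regions searched, only 1 of Acp5 and that of Oscar held letters bound by Mitf, a master regulator shared by osteoclasts and pigment cells. These 2 are shown with that of Ctsk, which lacks the letters, and do not stand for the 30. Acp5 and Ctsk are rule genes, so their height in these cells is set by the rule. The regions span 250 bases before to 50 bases after a RefSeq start (GRCm38.p6), written 5′ to 3′ on the gene's strand. Capitals mark TCACATG, the M-box form that Mitf and its relatives bind, searched on both strands (CATGTGA on the other).
Acp5 (start 3 of 3 listed, chr9:22130549-22130848, minus strand): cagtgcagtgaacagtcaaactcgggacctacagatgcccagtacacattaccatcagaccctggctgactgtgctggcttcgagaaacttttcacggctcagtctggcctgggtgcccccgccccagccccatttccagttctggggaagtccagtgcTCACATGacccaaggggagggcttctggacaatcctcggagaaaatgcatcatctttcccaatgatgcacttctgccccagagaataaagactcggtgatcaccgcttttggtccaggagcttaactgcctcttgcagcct
Oscar (chr7:3616108-3616407, minus strand): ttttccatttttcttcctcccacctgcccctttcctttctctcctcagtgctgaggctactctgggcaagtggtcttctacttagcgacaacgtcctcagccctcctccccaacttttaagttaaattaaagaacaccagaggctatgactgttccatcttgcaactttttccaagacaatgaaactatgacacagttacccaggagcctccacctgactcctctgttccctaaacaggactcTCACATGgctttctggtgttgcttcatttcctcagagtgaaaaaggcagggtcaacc
Ctsk (chr3:95498960-95499259, plus strand): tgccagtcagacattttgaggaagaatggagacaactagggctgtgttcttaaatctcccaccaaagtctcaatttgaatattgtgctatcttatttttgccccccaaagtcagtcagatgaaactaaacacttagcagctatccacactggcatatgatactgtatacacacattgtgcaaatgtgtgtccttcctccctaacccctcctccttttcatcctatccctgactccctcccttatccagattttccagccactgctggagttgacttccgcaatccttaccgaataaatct
The M-box letters begin 91 bases before the Acp5 start and 7 bases before the Oscar start, and do not occur in the Ctsk window. They were present in 2 of 30 windows for 19 of 30 osteoclast genes found in the table, 6.67% of the windows, against 3.99% of all 32851 windows. The AP-1 form TGANTCA, bound by Fos and Jun dimers, was in 2 of the 30 windows, against 7.81% of all windows. The E-box CACGTG was in 6.67% of the 30 windows, against 7.15% of all. The NFAT core GGAAAA was in 26.7%, against 23.4%, and the PU.1 core GAGGAA in 33.3%, against 28.3%. A match of letters is a description of the window and no site.

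The 2 libraries held 8825 barcodes (anti-VEGF) and 11687 barcodes (control) with 213948867 and 233687412 UMIs. The libraries shared 35 barcodes, none of them between their osteoclast-like cells. The osteoclast-like cells were deep, with a median of 31542 UMIs in the anti-VEGF library and 31641 UMIs in the control library, against 23720 UMIs (anti-VEGF) and 24070 UMIs (control) in the other eligible cells. Their share of eligible cells did not follow depth steadily. It was 3.66% (anti-VEGF) and 7.47% (control) at 5000 to 10000 UMIs, 1.97% (anti-VEGF) and 3.24% (control) at 10000 to 20000, and 10.6% (anti-VEGF) and 10.9% (control) at 20000 to 30000. It was 15.99% (anti-VEGF) and 18.32% (control) at 30000 to 45000 UMIs and 13.02% (anti-VEGF) and 11.8% (control) from 45000 upwards, the range where the anti-VEGF library had the higher share. The part of depth in the results was not tested, beyond the thinned values given with them. Scrublet, a doublet caller, marked 201 anti-VEGF barcodes and 1 control barcode, so its calls were not used and results without the cells of highest doublet score are given where they differ. Those were 623 anti-VEGF and 1093 control barcodes, numbers set by an assumed doublet rate. Among them were 55 of 552 anti-VEGF and 46 of 723 control osteoclast-like cells.

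Osteoclast-like cells were 552 of 5911 eligible cells in the anti-VEGF library, 9.34% (95% exact binomial interval 8.61% to 10.1%), and 723 of 6835 in the control library, 10.6% (9.86% to 11.3%). The difference was -1.24 percentage points, anti-VEGF minus control. The score had a second mode that the cut divides. The sparsest stretch, at 1.4 to 1.5, held 73 cells, the upper mode was at 2.8 to 2.9 with 179 cells, and the lowest member and the highest other cell both scored 2.453. Within 0.1 of the cut lay 147 members above and 142 other cells below, and 991 other cells scored 1.5 or more, 346 in the anti-VEGF library and 645 in the control library. Taken from 1.5 upwards, the share was 15.19% in the anti-VEGF library and 20.01% in the control library, a cut chosen after the data were seen, so the size of the difference depends on where the range is cut. The cut falls within the upper mode, so the cells are a range of the score and do not hold the whole mode.

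**Figure D1:**
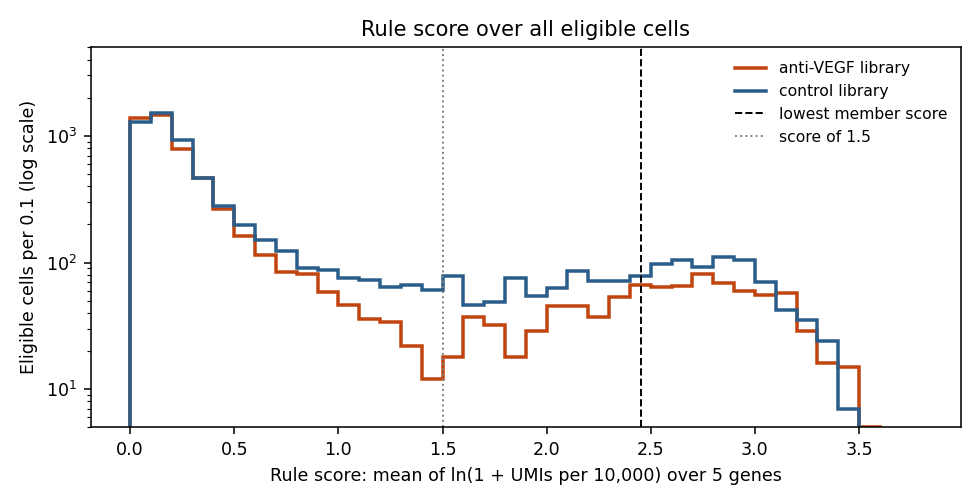
Number of eligible cells per 0.1 of the rule score (log scale) in the anti-VEGF and the control library; the dashed line is the lowest member score, 2.453, and the dotted line a score of 1.5. Both libraries have a large mode near 0 and a smaller upper one, and the control library, which has more eligible cells (6835, against 5911 in the anti-VEGF library), has the higher count in every bin from 0.1 to 3.1.

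All 5 rule genes define these cells and their levels are a description. Acp5 was at 13697 CPM (the gene's UMIs summed over the cells and scaled to one total for all cell sets) in anti-VEGF osteoclast-like cells and 12591 CPM in control ones, against 626 CPM (anti-VEGF) and 924 CPM (control) in the other eligible cells. Ctsk was at 16558 CPM in anti-VEGF and 15436 CPM in control osteoclast-like cells, against 617 CPM (anti-VEGF) and 648 CPM (control). Every osteoclast-like cell held a UMI of both, and all 5 genes were seen together in 82.6% of them, against 3.01% of the other eligible cells. Atp6v0d2 was at 1305 CPM (anti-VEGF) and 1347 CPM (control) in osteoclast-like cells, against 124 CPM (anti-VEGF) and 180 CPM (control) in the others. Ocstamp was at 241 CPM (anti-VEGF) and 238 CPM (control), against 6.34 CPM (anti-VEGF) and 8.60 CPM (control). Dcstamp was at 152 CPM (anti-VEGF) and 137 CPM (control), against 6.14 CPM (anti-VEGF) and 7.01 CPM (control).

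Free RNA could place rule genes in cells that do not make them, so each cell was thinned to 5000 UMIs and shares of cells with a UMI were set beside collagen-expressing Ptprc-negative cells and T and NK cells. Ocstamp was then seen in 61.4% of anti-VEGF and 63.3% of control osteoclast-like cells, in 0.188% (anti-VEGF) and 0.290% (control) of the collagen-expressing cells, and in 0 of 42 and 0 of 62 T and NK cells. Dcstamp was seen in 43.5% (anti-VEGF) and 44.1% (control) of osteoclast-like cells, against 0.375% (anti-VEGF) and 0 of 345 (control) collagen-expressing cells. Acp5 was seen in all osteoclast-like cells after thinning, in 42.9% (anti-VEGF) and 33.9% (control) of T and NK cells, and in 25.2% (anti-VEGF) and 33.3% (control) of macrophages, taken as cells with C1q and Adgre1. Collagen-expressing cells held Acp5 in 9.76% (anti-VEGF) and 11.0% (control), so the comparison sets differ, and no background level was drawn for Acp5 from them. Its CPM was 259 (anti-VEGF) and 327 (control) in macrophages, 110 (anti-VEGF) and 79.0 (control) in T and NK cells, and 92.2 (anti-VEGF) and 38.7 (control) in collagen-expressing cells. Median depth before thinning was 42520 UMIs (anti-VEGF) and 46565 UMIs (control) in the collagen-expressing cells and 9067 UMIs (anti-VEGF) and 10042 UMIs (control) in the T and NK cells. Such Ptprc-negative cells were in both libraries, 533 (anti-VEGF) and 345 (control), although CD45, the product of Ptprc, was the sorted marker. Unthinned, Ocstamp was in 94.9% of anti-VEGF and 96.3% of control osteoclast-like cells.

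Beyond the rule, 509 of 7300 genes with a mean of at least 10 CPM were at least 2-fold higher in osteoclast-like than in other eligible cells in both libraries, 6.97% of the genes, and 882 were at least 2-fold lower, 12.1%. Fold changes are on log2(CPM + 1), and the median gene was at -0.10 (anti-VEGF) and -0.15 (control). Scaled by median-of-ratios size factors, which move that median to 0.03 in both, the counts were 674 higher and 753 lower. Because the rule read RNA of these cells, all these ratios describe them and carry no test. At 100 CPM or more the exact Poisson interval of any level named for osteoclast-like cells was within 4.51% of it.

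The resorption machinery had the highest median among the gene lists outside the rule. Of 12 genes 9 were at least 2-fold higher in both libraries and none lower in both, against 6.97% and 12.1% of all genes. The median log2 ratio was 1.85 (anti-VEGF) and 1.90 (control). Mmp9, the gelatinase of osteoclasts, was at 8374 CPM in anti-VEGF and 5431 CPM in control osteoclast-like cells, against 201 CPM (anti-VEGF) and 130 CPM (control) in the others. The log2 ratio was 5.37 in the anti-VEGF and 5.38 in the control library. Snx10, a sorting protein whose loss causes osteopetrosis, was at 708 CPM (anti-VEGF) and 698 CPM (control), against 84.9 CPM (anti-VEGF) and 92.7 CPM (control). Car2, the carbonic anhydrase that supplies protons, was at 205 CPM (anti-VEGF) and 148 CPM (control), against 10.9 CPM (anti-VEGF) and 16.98 CPM (control). The acid and chloride circuit was higher too. Slc4a2, the bicarbonate exchanger, had log2 ratios of 2.52 (anti-VEGF) and 2.35 (control), Clcn7, the chloride exchanger, of 1.82 (anti-VEGF) and 1.90 (control), and its partner Ostm1 of 1.12 (anti-VEGF) and 1.06 (control), or 0.83 (anti-VEGF) and 0.71 (control) with the top 20% of cells. Mmp14, a membrane-bound collagenase, had log2 ratios of 2.38 (anti-VEGF) and 1.98 (control), and Plekhm1, a lysosome trafficking adaptor, of 1.38 (anti-VEGF) and 1.41 (control). Rab7, a late endosome GTPase, was at 0.02 (anti-VEGF) and 0.03 (control), and the lysosomal phosphatase Acp2 at -0.89 (anti-VEGF) and -1.06 (control).

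In the cytosolic V1 sector of the proton pump 7 of 9 measured subunits were at least 2-fold higher in both libraries. Atp6v1b2 was at 998 CPM (anti-VEGF) and 1001 CPM (control) in osteoclast-like cells, against 183 CPM (anti-VEGF) and 230 CPM (control) in the others. Atp6v1d had log2 ratios of 2.32 (anti-VEGF) and 2.27 (control). Of 10 measured membrane V0 subunits and accessory proteins 5 were at least 2-fold higher and 2 at least 2-fold lower, against 6.97% and 12.1% of all genes. Isoforms of 1 subunit went opposite ways. Tcirg1, counted in the resorption list too and the a3 subunit that sends the pump to the osteoclast plasma membrane, was at 403 CPM (anti-VEGF) and 463 CPM (control), against 109 CPM (anti-VEGF) and 123 CPM (control). Atp6v0a1, the a1 isoform, was at 5.30 CPM (anti-VEGF) and 5.26 CPM (control), against 43.8 CPM (anti-VEGF) and 46.7 CPM (control). Atp6v0d2, the d2 subunit of the rule, was high while its ubiquitous counterpart Atp6v0d1 had log2 ratios of -0.13 (anti-VEGF) and -0.07 (control).

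Other proteases were mostly lower and lysosomal genes were mixed. Of 15 cathepsins and inhibitors outside the rule, 8 were at least 2-fold lower in both libraries and 1, the inhibitor Cst7, higher (under 2-fold in the control library with the top 5% of cells, at 0.93). Cathepsin S (Ctss) was at 240 CPM (anti-VEGF) and 245 CPM (control) in osteoclast-like cells, against 1851 CPM (anti-VEGF) and 1583 CPM (control) in the others. Ctsb had log2 ratios of -1.63 (anti-VEGF) and -1.66 (control), and Ctsl of -2.87 and -2.65. The lysosomal membrane protein Lamp1 was at 141 CPM (anti-VEGF) and 135 CPM (control), against 914 CPM (anti-VEGF) and 852 CPM (control). Of 15 lysosomal proteins 2 were at least 2-fold higher (Hexa and Npc2, both under 2-fold with the top 20% of cells) and 3 at least 2-fold lower in both libraries (Lamp1, Lamp2 and Scarb2). Of all genes 6.97% were at least 2-fold higher and 12.1% lower, so these counts and the 1 higher inhibitor are near the general shares.

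**Figure D2:**
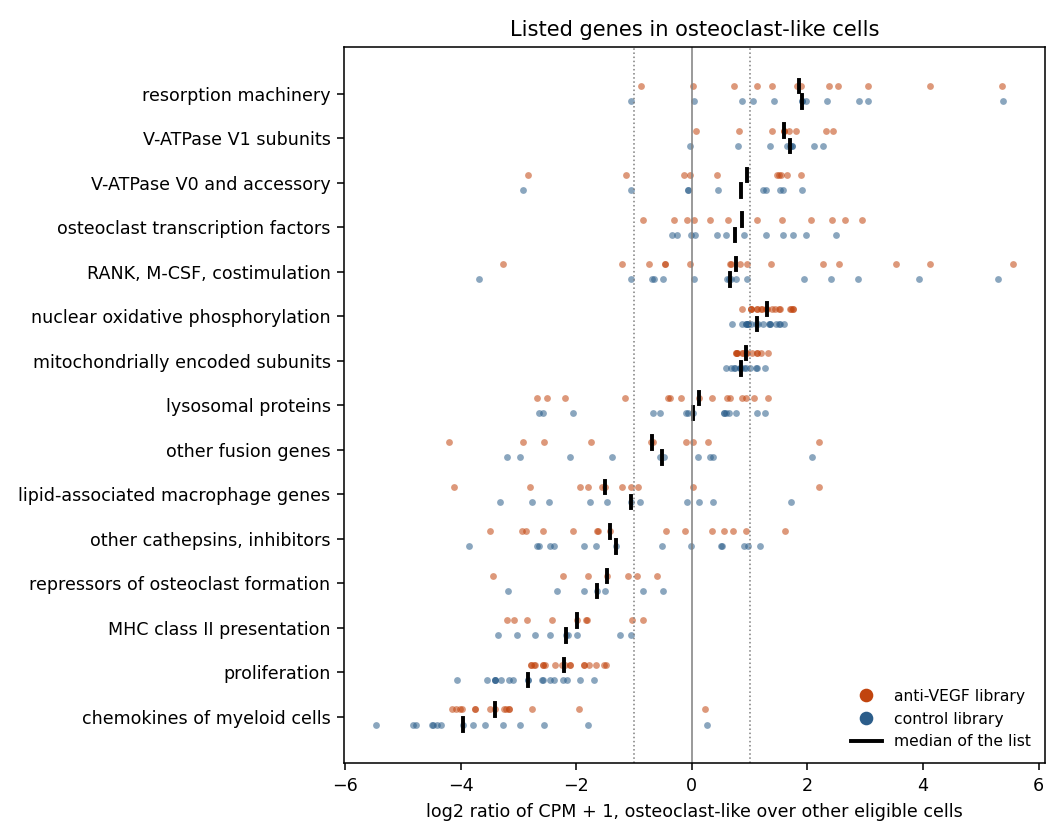
Log2 ratio of CPM + 1, osteoclast-like over other eligible cells, for each measured gene of 15 lists (points: anti-VEGF library above, control library below) with the list's median as a bar; dotted lines mark 2-fold. The resorption machinery and V1 lists lie to the right, and chemokines, proliferation and MHC class II genes to the left in both libraries.

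Transcription factors were raised in part. Of 12 osteoclast transcription factors 5 were at least 2-fold higher in both libraries, against 6.97% of all genes. Nfatc1, the master factor, was at 520 CPM (anti-VEGF) and 591 CPM (control) in osteoclast-like cells, against 82.0 CPM (anti-VEGF) and 150 CPM (control) in the others. Jdp2, an AP-1 partner of osteoclasts, had log2 ratios of 2.43 (anti-VEGF) and 1.74 (control), and Prdm1, which represses anti-osteoclast genes, of 2.05 and 1.58. Ppargc1b, a coactivator of mitochondrial genes, was at 102 CPM (anti-VEGF) and 114 CPM (control), against 12.4 CPM (anti-VEGF) and 19.5 CPM (control). Fosl2, another AP-1 factor, had log2 ratios of 1.55 (anti-VEGF) and 1.29 (control), and Fos itself of 0.04 and 0.05. Mitf was at 109 CPM in osteoclast-like cells of both libraries, against 49.6 CPM (anti-VEGF) and 58.3 CPM (control), a log2 ratio of 1.12 and 0.90.

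All 7 repressors of osteoclast formation were lower, 5 of them at least 2-fold in both libraries, against 12.1% of all genes. Irf8, whose removal is a step of osteoclast formation, was at 12.0 CPM (anti-VEGF) and 15.7 CPM (control), against 141 CPM (anti-VEGF) and 151 CPM (control). Bcl6, a target that Prdm1 silences, had log2 ratios of -1.48 (anti-VEGF) and -1.51 (control).

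Surface receptors of osteoclasts were raised unevenly. Of 16 signalling genes 5 were at least 2-fold higher and 2 at least 2-fold lower in both libraries, against 6.97% and 12.1% of all genes. Oscar, a collagen receptor of osteoclasts, was at 125 CPM (anti-VEGF) and 98.4 CPM (control), against 1.67 CPM (anti-VEGF) and 1.52 CPM (control), a log2 ratio of 5.56 and 5.30. Itgb3, the integrin chain of the sealing zone, was at 40.5 CPM (anti-VEGF) and 34.2 CPM (control), against 1.39 CPM (anti-VEGF) and 1.31 CPM (control). T and NK cells held Itgb3 at 44.8 CPM (anti-VEGF, 42 cells) and 32.7 CPM (control, 62 cells), so it did not set osteoclast-like cells apart from them. Siglec15 was at 17.2 CPM (anti-VEGF, 95% exact Poisson interval 15.4 to 19.2) and 11.3 CPM (control, 10.0 to 12.8), against 0.574 CPM (anti-VEGF) and 0.684 CPM (control). Src, a kinase needed for the ruffled border, had log2 ratios of 2.27 (anti-VEGF) and 1.95 (control). The calcitonin receptor Calcr, a marker of late osteoclasts, was seen, without thinning, in 12.9% of anti-VEGF and 11.5% of control osteoclast-like cells, against 0.131% (anti-VEGF) and 0.213% (control) of the others. The M-CSF receptor Csf1r was kept, at 683 CPM (anti-VEGF) and 756 CPM (control), against 382 CPM (anti-VEGF) and 487 CPM (control). RANK (Tnfrsf11a) had log2 ratios of 0.96 and 0.68, and Trem2 was lower (-1.20 and -1.05).

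Mitochondrial genes were high in both genomes. Of 18 measured nuclear genes of oxidative phosphorylation 18 were higher and 11 at least 2-fold higher in both libraries, against 6.97% of all genes at least 2-fold higher. Their medians were 1.29 (anti-VEGF) and 1.12 (control). The 13 mitochondrially encoded subunits, a list added after the values were seen, were all higher as well (median 0.94 and 0.84). The mitochondrial share of UMIs was 6.003% (anti-VEGF) and 6.09% (control) in osteoclast-like cells at the median, against 3.18% (anti-VEGF) and 3.38% (control) in the others. Tfrc, the transferrin receptor that brings in iron, was at 485 CPM (anti-VEGF) and 762 CPM (control), against 71.5 CPM (anti-VEGF) and 122 CPM (control), and the metalloreductase Steap4 had log2 ratios of 4.66 and 4.51. Because the rule drops cells above 10% mitochondrial UMIs, many high-scoring barcodes are outside the set: of barcodes with at least 5000 UMIs left out for it, 204 of 303 in the anti-VEGF library (67.3%) and 214 of 383 in the control library (55.9%) scored at or above the cut. Left-out barcodes at or above the cut had 18818 CPM (anti-VEGF) and 13807 CPM (control) of Mmp9, and those below it 1770 CPM (anti-VEGF) and 1068 CPM (control).

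The 15 highest ratios over all genes were headed by Mt3, a metallothionein better known from brain, at 237 CPM (anti-VEGF) and 189 CPM (control), against 3.36 CPM (anti-VEGF) and 3.46 CPM (control). Mmp9, Oscar, Steap4, Itgb3, Mst1r (a macrophage-stimulating protein receptor), Myo1d (an unconventional myosin), Rufy4, Pate4, Coq8a (a coenzyme Q kinase-like protein), Fam109a, Nyap2, Ttn, Kazn and St8sia6 complete the set, with the weaker log2 ratio between 3.66 and 5.41.

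Macrophage genes were low. Of 10 macrophage markers 8 were at least 2-fold lower in both libraries, and Csf1r and Cd68 were higher. Of all genes 12.1% were at least 2-fold lower, the share for the lists below as well. Mrc1, the mannose receptor, was at 13.75 CPM (anti-VEGF) and 11.7 CPM (control), against 273 CPM (anti-VEGF) and 345.5 CPM (control). Lyz2, lysozyme of myeloid cells, had log2 ratios of -4.00 (anti-VEGF) and -4.31 (control). All 9 MHC class II genes were lower, 8 at least 2-fold in both libraries (median -1.98 and -2.19), and 14 of 15 chemokines were at least 2-fold lower, with Ccl9 as the exception. All 18 proliferation genes were at least 2-fold lower: Mki67 was at 21.3 CPM (anti-VEGF) and 10.4 CPM (control), against 148 CPM (anti-VEGF) and 190 CPM (control). The proliferation call rests on the cut. With the top 20% of cells the log2 ratios of Mki67 were -0.89 (anti-VEGF) and -0.98 (control), Top2a, Stmn1 and Tubb5 were under 2-fold too, and the list's medians were -0.69 (anti-VEGF) and -0.76 (control), against -2.22 (anti-VEGF) and -2.83 (control) at the top 10%.

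Most of the remaining C1q RNA sat in few cells. The 28 anti-VEGF osteoclast-like cells with the most C1qa, C1qb and C1qc UMIs held 74.9% of these UMIs of their group, and 37 control cells held 72.5%. The median cell had 0.574 (anti-VEGF) and 0.922 (control) such UMIs per 10000. The 5% of cells with the most V1 subunit UMIs held 10.7% (anti-VEGF) and 11.2% (control) of those. Without the cells of highest doublet score, summed C1q was at 66.4 CPM in anti-VEGF and 130 CPM in control osteoclast-like cells, in place of 427 CPM (anti-VEGF) and 340 CPM (control). Markers of other cell types had a median of 0 UMIs per cell in osteoclast-like cells for T and NK, B, dendritic, neutrophil, mast, fibroblast, tumour and endothelial lists, but their sums were not all lower than in the others. The summed T and NK markers were at 3.69 CPM in both sets of osteoclast-like cells, against 42.4 CPM (anti-VEGF) and 61.4 CPM (control) in the others, with a median of 0 per cell, Ncr1, Gzmb and Klrb1c at 0 in the anti-VEGF set and Klrb1c at 0 in the control set. Monocyte markers were at 102 CPM (anti-VEGF) and 68.8 CPM (control), against 1460 CPM (anti-VEGF) and 1053 CPM (control). Neutrophil markers were at 91.5 CPM (anti-VEGF) and 14 CPM (control), against 195 CPM (anti-VEGF) and 50.9 CPM (control), with a median of 0 per cell in all 4 sets. Fibroblast markers were at 6.47 CPM (anti-VEGF) and 6.58 CPM (control), against 8.37 CPM (anti-VEGF) and 7.90 CPM (control). This list holds Col3a1 and Col1a2, capped at 2 UMIs together in every eligible cell. Its low values in both kinds of cell are thus set in part by the filter. Tumour and mesothelial markers were at 6.96 CPM (anti-VEGF) and 1.32 CPM (control), against 3.43 CPM (anti-VEGF) and 2.76 CPM (control). Krt19, Wt1 and Upk3b were at 0 in both sets of osteoclast-like cells, and Wt1 also in the others. Krt18 was at 0 in the anti-VEGF set as well, so that sum came from Msln and Krt8. Of the 6 markers 2 had at least 50 UMIs. Both were higher in anti-VEGF osteoclast-like cells, 1 at least 2-fold. In the control library 1 was higher and 1 at least 2-fold lower. Endothelial markers were at 5.40 CPM (anti-VEGF) and 8.40 CPM (control), against 9.22 CPM (anti-VEGF) and 12.4 CPM (control), and dendritic cell markers at 6.15 CPM (anti-VEGF) and 10.1 CPM (control), against 21.9 CPM (anti-VEGF) and 37.3 CPM (control). The part of such transcripts in the results was not tested, beyond the values without cells of highest doublet score.

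Genes outside the rule did not change at the same place along the score. Nfatc1 was at 363 CPM (anti-VEGF) and 454 CPM (control) in cells ranked from 80% to 90%, just below the members, against 550 CPM (anti-VEGF) and 592 CPM (control) in the top 5%. Jdp2 was near its top value there too, at 776 CPM (anti-VEGF) and 804 CPM (control). Oscar was at 12.4 CPM (anti-VEGF) and 6.76 CPM (control) in that range and reached 180 CPM (anti-VEGF) and 151 CPM (control) in the top 5%, and Mt3 was at 24.96 CPM (anti-VEGF) and 18.2 CPM (control), against 341 CPM (anti-VEGF) and 296 CPM (control) in the top 5%. Mki67 was at 148 CPM (anti-VEGF) and 172 CPM (control) from 80% to 90%, with 38.4 CPM (anti-VEGF) and 17.15 CPM (control) from 90% to 95% and 5.19 CPM (anti-VEGF) and 3.53 CPM (control) in the top 5%. C1qa was at 3432 CPM (anti-VEGF) and 4508 CPM (control) in the lowest 50% and at 783 CPM (anti-VEGF) and 749 CPM (control) from 80% to 90%. Along the score, Jdp2 was thus near its top level, and Nfatc1 above its level in lower ranks, in a range where Mki67 was not yet low, whereas Oscar and Mt3 had most of their level above it. A rank is not a time.

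**Figure D3:**
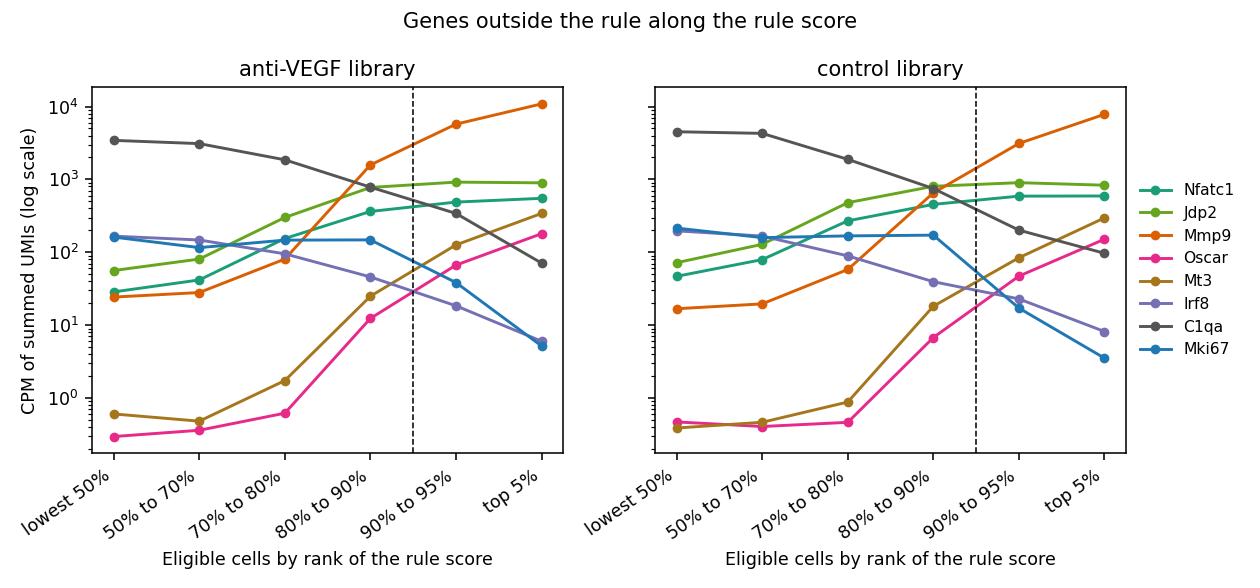
CPM (log scale) of 8 genes that the score does not use, in eligible cells binned by rank of the score, lowest to highest, in the anti-VEGF library (left) and the control library (right); the dashed line is the cut. Jdp2 is near its top level just left of the cut, Nfatc1 is part of the way there, Oscar and Mt3 climb to the right end, and Mki67 drops right of the cut.

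Further lists were low or split. Of all genes 6.97% were at least 2-fold higher and 12.1% lower in both libraries. Of 10 measured fusion genes outside the rule 4 were at least 2-fold lower in both libraries, among them the tetraspanin Cd81 at 38.7 CPM (anti-VEGF) and 28.7 CPM (control), against 302 CPM (anti-VEGF) and 272 CPM (control), and 1, the myosin Myo10, was at least 2-fold higher. Of 14 measured coupling factors, signals from osteoclasts to bone-forming cells, 4 were at least 2-fold higher (Sema4d, Lif, Sphk1 and Cthrc1, the last at 0.76 in the anti-VEGF and 0.36 in the control library with a pseudocount of 5 CPM) and 4 at least 2-fold lower in both libraries. Of 11 lipid-associated macrophage genes 6 were at least 2-fold lower, and Lpl, lipoprotein lipase, was at 483 CPM (anti-VEGF) and 454 CPM (control), against 104 CPM (anti-VEGF) and 138 CPM (control). Of 10 measured immune regulators 7 were at least 2-fold lower, among them the checkpoint ligand Cd274 with log2 ratios of -2.64 (anti-VEGF) and -2.03 (control). Of 9 iron genes 2 were at least 2-fold higher and 2 lower, of 12 interferon genes 8 lower and of 19 hypoxia genes 7 lower. Of 15 glycolysis genes 2 were at least 2-fold lower, a share near the 12.1% of all genes. Of 12 MHC class I genes 1 was at least 2-fold higher, near the 6.97% of all genes, and 9 were below 0 in both libraries (median -0.38 in the anti-VEGF and -0.19 in the control library).

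Between the libraries, 52 of 7305 genes (0.712%) were at least 2-fold higher and 6 (0.0821%) at least 2-fold lower in anti-VEGF than in control osteoclast-like cells. Without the cells of highest doublet score the counts were 18 higher and 23 lower. The median gene was at -0.02. With 0.712% of all genes 2-fold higher and 0.0821% lower, lists of about 10 genes would mostly hold none. None of 12 resorption genes, 9 V1 subunits and 12 transcription factors was 2-fold apart, with list medians of 0.03, -0.04 and -0.12. The largest shift among them was in Mmp9, 8374 CPM in anti-VEGF and 5431 CPM in control osteoclast-like cells (ratio 1.54, interval 1.53 to 1.55), and the median cell had 78.2 (anti-VEGF) and 36.9 (control) UMIs of it per 10000. The log2 ratio was 0.62 in osteoclast-like cells and 0.63 in the others, and whether these differ was not tested. Along the score Mmp9 was at 1580 CPM (anti-VEGF) and 653 CPM (control) from 80% to 90%, 5727 CPM (anti-VEGF) and 3115 CPM (control) from 90% to 95%, and 10863 CPM (anti-VEGF) and 7816 CPM (control) in the top 5%, so the gap between libraries was narrowest, as a ratio, in the top 5% of these 3 ranges. After thinning, Mmp9 was seen in 98.7% of anti-VEGF and 97.5% of control osteoclast-like cells and in 17.5% (anti-VEGF) and 16.9% (control) of the others. The shares were 15.01% (anti-VEGF) and 16.5% (control) in collagen-expressing cells and 14.3% (anti-VEGF) and 14.5% (control) in T and NK cells, near those of the other cells. Mmp9 CPM was lower there, at 82.0 (anti-VEGF) and 38.9 (control) in collagen-expressing cells and 53.0 (anti-VEGF) and 25.9 (control) in T and NK cells. The other cells were at 201 CPM (anti-VEGF) and 130 CPM (control) and include the 80% to 90% range, so no background level was drawn from the shares. Car2 had a log2 ratio of 0.47 in osteoclast-like cells and -0.60 in the others, a difference that was not tested. Nfatc1 was at -0.18 in osteoclast-like cells and -0.87 in the others. The make-up of the others differed between libraries: 346 of 5359 (anti-VEGF) and 645 of 6112 (control) scored 1.5 or more. The part of this in the Car2 and Nfatc1 ratios of the others was not tested.

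Hypoxia genes were higher throughout. All 19 were higher in anti-VEGF than in control osteoclast-like cells, 7 at least 2-fold (median 0.65), and in the other eligible cells all 19 were higher too, 8 at least 2-fold (median 0.83). The median of all genes tested was -0.02 in osteoclast-like cells and -0.10 in the others. Of all genes 0.712% were at least 2-fold higher in osteoclast-like cells, a share that was not counted for the others. Ndrg1 was at 63.2 CPM in anti-VEGF and 18.9 CPM in control osteoclast-like cells, Bnip3, a mitophagy receptor, at 155 CPM (anti-VEGF) and 61.4 CPM (control), and Slc2a1, the glucose transporter, at 54.9 CPM (anti-VEGF) and 23.7 CPM (control). Of 15 glycolysis genes 15 were higher, 2 at least 2-fold (median 0.50, and 0.72 in the others). Fabp5, a fatty acid binding protein, was at 171 CPM in anti-VEGF and 73.9 CPM in control osteoclast-like cells (log2 ratio 1.20), with -0.06 in the others. The other genes among the 10 highest ratios were Srgn, Basp1, Ero1l, Arg1, Wfdc17 and Cxcl14. Without the cells of highest doublet score the log2 ratio of Srgn was 0.27 in place of 1.66, of Basp1 0.48 in place of 1.37, of Wfdc17 0.47 in place of 1.32 and of Arg1 0.82 in place of 1.32, while Ndrg1 (1.22), Bnip3 (1.24), Ero1l (1.06), Cxcl14 (1.34) and Fabp5 (1.02) were above 1 and Slc2a1 was at 0.99. The chemokine list, with a median of 0.67, was at -0.58 without those cells. Over 20 alternatives Ndrg1, Bnip3 and Cxcl14 were at least 2-fold higher in all 20. Fabp5 was so in 14, with a lowest log2 ratio of 0.59, and Wfdc17 in 13. Lower in anti-VEGF osteoclast-like cells among genes with at least 50 CPM were Hspb1, Tfrc, Clec4a3, Apoe, Hspa1a, Ier5, Glul, Pnpla2, Gadd45g and Blnk, with log2 ratios between -0.88 and -0.50, none 2-fold.

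**Figure D4:**
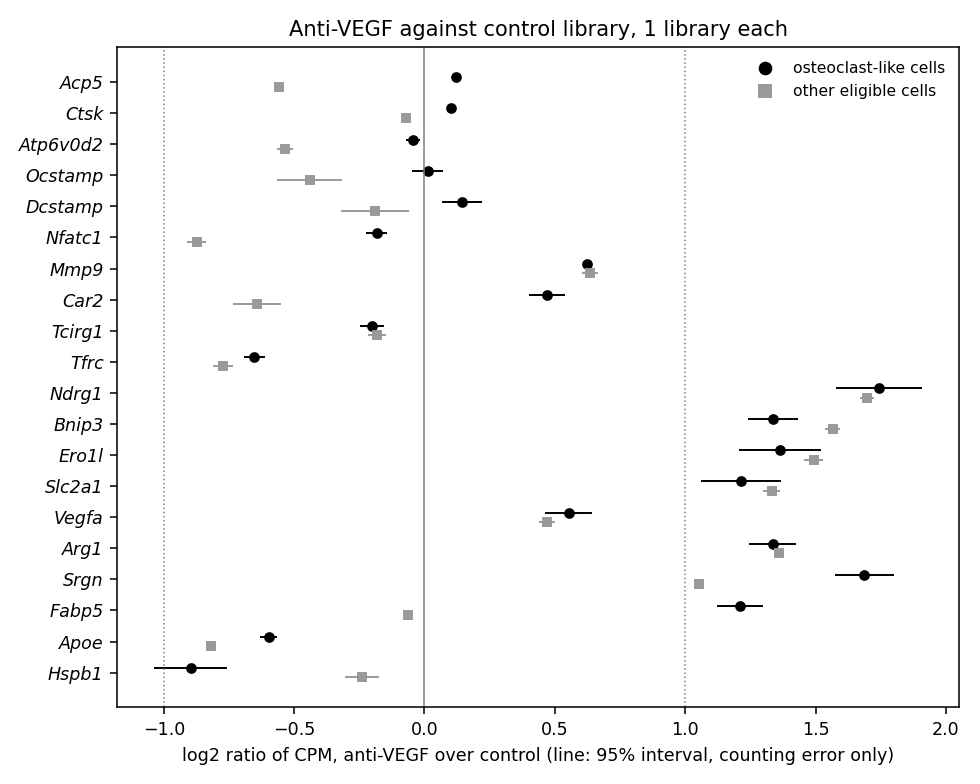
Log2 ratio of CPM, anti-VEGF over control library, in osteoclast-like cells (circles) and in other eligible cells (squares), with 95% intervals for counting error only; dotted lines mark 2-fold. The rule genes, Nfatc1 and Tcirg1 lie near 0 in osteoclast-like cells, and Ndrg1, Bnip3, Ero1l and Slc2a1 lie beyond 2-fold in both kinds of cell.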

How the data were processed

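Single-cell RNA of 2 libraries, 1 from mice given an anti-VEGF antibody and 1 from control mice, was measured with 3′ v3.1 droplet chemistry, per the labels' protocols. The authors deposited UMI counts per gene and barcode; Cell Ranger 3.0.2 and mm10 stand in the submitters' processing notes, and 3.1.0 is the software version per the file headers. No normalization was applied to the deposited counts.

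UMIs were summed per library and cell set and written as CPM, with fold changes on log2(CPM + 1) for genes of at least 10 CPM on average (listed genes: at least 50 UMIs). No test was run, since each group is 1 library. Shares carry exact binomial (Clopper-Pearson) intervals, ratios exact conditional binomial ones, at 95%. Cells were thinned to 5000 UMIs without losing any. Comparison sets were collagen-expressing Ptprc-negative cells (at least 10 UMIs of Col3a1 and Col1a2) and T and NK cells (at least 3 UMIs of Cd3d, Cd3e, Cd3g, Trbc2 and Ncr1, no Csf1r). Genes named are members of the gene lists and markers, the 15 highest and 10 lowest ratios of osteoclast-like to other cells, and the 10 highest and lowest ratios between libraries at 50 CPM or more in 1 of the sums and a UMI in 10% of its cells, leaving out predicted, ribosomal and similar genes. The cells and lists were chosen with earlier results of these data known, and the promoter genes and motifs after the values were seen. UMI totals per library are given with the results. Promoter windows are RefSeq's. Alternatives covered the cut, the score, doublets (Scrublet in scanpy 1.11.5), scaling (edgeR 4.0.16 TMM, DESeq2 1.42.0 size factors), pseudocount, filter and thinning. Only the fold and interval steps were tested, on simulated Poisson sums that lack the clustering of UMIs in few cells. Python 3.11.15 and R 4.3.3 were used.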

Additional observations from a re-analysis of the deposited data

Results flagged for a closer look

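Cxcl3, a neutrophil-attracting chemokine, had a log2 ratio of -0.873 (anti-VEGF over control) in osteoclast-like cells and 1.34 in the other eligible cells. It was at 0.589 CPM in anti-VEGF and 1.91 CPM in control osteoclast-like cells. The opposite directions drew attention and their difference was not tested.

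The 12 type I interferon response genes had a median log2 ratio of -0.37 (anti-VEGF over control) in osteoclast-like cells, with 11 lower and 1 higher, and of 0.299 in the other eligible cells, with 10 higher and 2 lower. This difference was not tested either.

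Among barcodes set aside for more than 10% mitochondrial UMIs, 67.3% in the anti-VEGF library and 55.9% in the control library scored at or above the cut. With cells of up to 25% mitochondrial UMIs included at the same cut, an alternative chosen after seeing the data, the osteoclast-like share was 12.15% in the anti-VEGF library and 12.99% in the control library.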

How the results depend on the processing

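No paired analysis was possible because each group is 1 library. The counts of genes 2-fold apart between osteoclast-like and other cells stayed within 1.5 times under every alternative run, except 1648 lower genes with no CPM filter. Size factors gave 674 higher and 753 lower, and TMM 656 and 765. The counts between libraries were less steady: 34 higher and 13 lower in the top 5%, 18 and 23 without the highest doublet scores (15 of the 52 shared), 85 and 33 with no CPM filter, 27 and 2 with a pseudocount of 5 CPM, and 24 lower with cells thinned to 5000 UMIs. The share difference (anti-VEGF minus control) was -6.63 points in the top 20% and -4.82 points at a score of 1.5 or more, a cut chosen after seeing the data. The anti-VEGF over control ratio of Cxcl10 in osteoclast-like cells, 1.22 on the log2 scale, was -0.72 in the top 5%, -0.86 without the highest doublet scores and -0.19 with up to 25% mitochondrial UMIs (also chosen after seeing the data). That of S100a8, 1.87, was -0.011 without the highest doublet scores. S100a9 in anti-VEGF osteoclast-like over other cells, -1.14, was 0.034 without cells with T, NK, B or neutrophil markers. The causes were not tested. Of 244 named ratios of osteoclast-like to other cells that were at least 2-fold, 41 fell below 2-fold under 1 or more alternatives, in 113 of 4880 values. Of the values of named genes under alternatives, apart from the 5 reversed ones, 525 moved and 12030 did not, and of list medians 29 moved and 1811 did not. Genes under about 10 CPM are limited by depth, and 1 library per group leaves the spread between mice unknown.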
